A study of Mus musculus with 9 samples.

Results

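The genes described here are 40 genes of DNA replication and mitosis, followed in RNA from mouse embryos. The 40 genes were listed by name, with earlier results of these data known. They are 20 mitosis genes, from Mki67 to Kif20a, and 20 genes of the G1/S transition and of replication, from Ccne1 to Pola1. All 40 were among the 16070 rows of the deposited table. Each value is in FPKM, a count of sequenced fragments divided by the length of the transcript and by the size of the library, so that levels can be set side by side between genes. Of the members, 39 reached at least 1 FPKM in at least 3 libraries and were tested together with all 11850 genes that did so. Ccnd1 (cyclin D1) stood between 0 and 1.48 FPKM over all libraries and was not tested.

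There were 3 groups of 3 libraries: wild type (WT), H3R17H, in which an arginine of histone H3 is labelled as replaced by histidine, and Carm1-/-, labelled as lacking the methyltransferase of that arginine. All embryos shared the strain C57BL/6, culture in vitro and an age of 4.5 days after microinjection, WT included, at about the stage of the late blastocyst. The labels do not say what WT embryos were injected with, whether every cell of an edited embryo carried the edit, or whether libraries came from separate embryos, and they name both embryos and single cells as the source. P-values therefore measure the spread between these libraries, which may be technical. Carm1 went against the titles. Its level was 8.86, 7.08 and 6.65 FPKM over the WT replicates. The replicates labelled H3R17H read 1.88, 0.021 and 1.22 FPKM, and those labelled Carm1-/- read 6.44, 12.7 and 9.52. The column of each library titled H3R17H is also named for Carm, and the column of each library titled Carm1-/- for Hist. Every direction below therefore refers to the label of a library, not to an established genotype, and within a comparison the libraries under a label other than WT are called the edited libraries.

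Libraries also differed in ways that their labels do not give. The 4 Y-linked genes summed to between 30.7 and 35.7 FPKM in WT, to 36.6 and 28.1 in replicate 1 labelled H3R17H and replicate 1 labelled Carm1-/-, and to at most 0.01 in the 4 other edited libraries. Xist, which silences an X chromosome, stood at most at 0.43 FPKM in WT and in replicate 1 labelled Carm1-/-, at 4.84 in replicate 1 labelled H3R17H, and between 16.6 and 32.5 in those same 4 libraries. Markers of the trophectoderm, the outer epithelium of the blastocyst, were summed over 14 genes, of which 13 were tested. They summed to between 5700 and 8725 FPKM in WT, to 1659, 1706 and 4658 in replicates 1 to 3 labelled H3R17H, and to 9196, 2104 and 2623 in those labelled Carm1-/-. Krt8 and Krt18, keratins of that layer, and Pou5f1 and Nanog, factors of the inner cell mass, were detected in all 9 libraries, while Gata2 was at 0 in 4 of them and Elf5 in another overlapping set of 4. Replicate 1 labelled Carm1-/- thus lay with WT in its trophectoderm markers, its Y-linked transcripts and its Xist level.

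A dividing cell first commits to S phase through cyclin D with Cdk4 and cyclin E with Cdk2, then copies its DNA at origins that Cdc6 and Cdt1 had loaded with the Mcm helicase, and finally enters mitosis when cyclin A and cyclin B activate Cdk1. Cells of the early mouse embryo divide fast, and the blastocyst contains cycling inner cells and trophectoderm cells that later leave the mitotic cycle to become giant cells. Transcripts of the replication genes peak in G1 and S phase under E2F factors, and transcripts of the mitosis genes peak in G2 and M phase under the DREAM and MuvB complexes with B-Myb and FoxM1. The promoter element of the mitosis class is the cell cycle homology region (CHR), often beside CCAAT boxes, which NF-Y binds.

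The 2 classes could be told apart in their promoters. In RefSeq promoters of GRCm38.p6, taken from 250 bases before to 50 after the start, 33 of the 40 members had an entry, and Ccna2, Aurkb, Tpx2, Kif20a, Ccnd1, Mcm4 and Gins2 did not. On either strand, the CHR word TTTGAA occurred in 11 of 16 mitosis members and in 1 of 17 replication members, against 20.2% of all 27025 genes with a promoter entry. CCAAT occurred in 14 of 16 and 11 of 17, against 41.1%, and both in a single window in 11 of 16 and 1 of 17, against 7.97%. An E2F word (TTTCCCGC, TTTCGCGC, TTTGCCGC or TTTGGCGC) occurred in 1 of 16 mitosis and 8 of 17 replication members, against 2.6%. CHR and CCAAT words share no bases with each other in the windows printed here, while 2 E2F words overlap in Mcm5 and again in Mcm6. A match describes the letters and says nothing of a factor being bound. The first 3 windows below belong to the mitosis genes with the lowest differences from WT in the libraries labelled H3R17H among those with an entry. The next 2 belong to mitosis genes whose values in these libraries overlapped WT, so that both kinds can be compared. CHR and CCAAT words, and their reverse complements, are in capitals.
Mki67: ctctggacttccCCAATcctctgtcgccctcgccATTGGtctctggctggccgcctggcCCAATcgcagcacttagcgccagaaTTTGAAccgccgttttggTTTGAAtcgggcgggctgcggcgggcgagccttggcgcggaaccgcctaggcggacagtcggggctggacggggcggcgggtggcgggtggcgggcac
Top2a: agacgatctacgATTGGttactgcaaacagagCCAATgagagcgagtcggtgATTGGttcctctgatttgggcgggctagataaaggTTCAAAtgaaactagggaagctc
Ccnb2: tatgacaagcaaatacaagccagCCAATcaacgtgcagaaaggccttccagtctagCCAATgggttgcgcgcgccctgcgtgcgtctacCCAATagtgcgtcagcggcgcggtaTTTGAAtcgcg
Cdc20: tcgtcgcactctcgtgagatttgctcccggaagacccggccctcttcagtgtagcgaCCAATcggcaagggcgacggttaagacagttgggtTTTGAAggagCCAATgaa
Ube2c: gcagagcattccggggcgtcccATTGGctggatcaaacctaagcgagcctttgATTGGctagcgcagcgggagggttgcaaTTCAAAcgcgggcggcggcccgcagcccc

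These windows lie at chr7:135716380-135716579 for Mki67, chr11:99024190-99024299 for Top2a, chr9:70421540-70421664 for Ccnb2 and chr4:118437344-118437453 for Cdc20, all on the minus strand, and at chr2:164769819-164769928 on the plus strand for Ube2c. Each ends at the base before the start of transcription, except that of Ccnb2, which runs 15 bases past the start. Mki67 carried 2 CHR words in its printed window and the other 4 genes a single word each. Top2a and Ccnb2 each carried another CHR word upstream of the window printed, starting at bases -179 and -167. The replication members below show the E2F words and the CCAAT boxes in capitals, in a pair of Mcm helicase genes and in Cdk2, which had the lowest difference from WT among the members with an E2F word in both edited groups.
Mcm5: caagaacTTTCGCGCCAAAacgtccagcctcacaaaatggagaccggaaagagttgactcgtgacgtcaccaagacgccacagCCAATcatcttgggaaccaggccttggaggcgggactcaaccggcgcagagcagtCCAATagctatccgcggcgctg
Mcm6: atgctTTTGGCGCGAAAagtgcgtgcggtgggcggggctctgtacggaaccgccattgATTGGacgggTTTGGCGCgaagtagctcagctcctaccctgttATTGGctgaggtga
Cdk2: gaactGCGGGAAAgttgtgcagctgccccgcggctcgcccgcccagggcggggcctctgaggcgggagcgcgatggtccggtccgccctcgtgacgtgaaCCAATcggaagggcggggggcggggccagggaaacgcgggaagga

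They lie at chr8:75109349-75109508 on the plus strand for Mcm5 and on the minus strand at chr1:128359706-128359820 for Mcm6 and chr10:128705052-128705196 for Cdk2. None of the 3 carried a CHR word in the whole promoter.

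In WT embryos the members covered a wide range of levels. The highest were Rrm2, the small subunit of ribonucleotide reductase, at 562 ± 41.6 FPKM (SD, n = 3), Cdc20, which activates the anaphase-promoting complex, at 556 ± 106, and Ccnb1, cyclin B1, at 472 ± 56.4, and these 3 did not differ beyond their spread. Ube2c (348 ± 21.5), Ccnb2 (306 ± 59.6), Aurka (268 ± 24.3), Cenpa (253 ± 28.3), Cdk4 (225 ± 46.5) and Pcna (182 ± 4.92) followed, most of them with spreads that meet those of their neighbours. At the low end stood Bub1 (15.5 ± 2.37), Pola1 (5.98 ± 1.36) and Ccnd1 (0.49 ± 0.42). Ccnd3, cyclin D3, was the abundant D cyclin, at 122 ± 41.9 FPKM, while Ccnd2, which is no member, stood at 2.16 FPKM or less in every library. The coefficient of variation over the WT libraries ran from 1.81% for Birc5 to 34.9% for Mcm2 among tested members. Among replication genes, WT replicate 3 held the lowest value and replicate 1 the highest for Ccne1, Cdk4, Mcm2, Mcm4, Mcm5, Mcm7, Rrm1, Cdt1 and Cdc6. The map of the 40 members by library shows both classes in all 9 libraries.

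**Figure D1:**
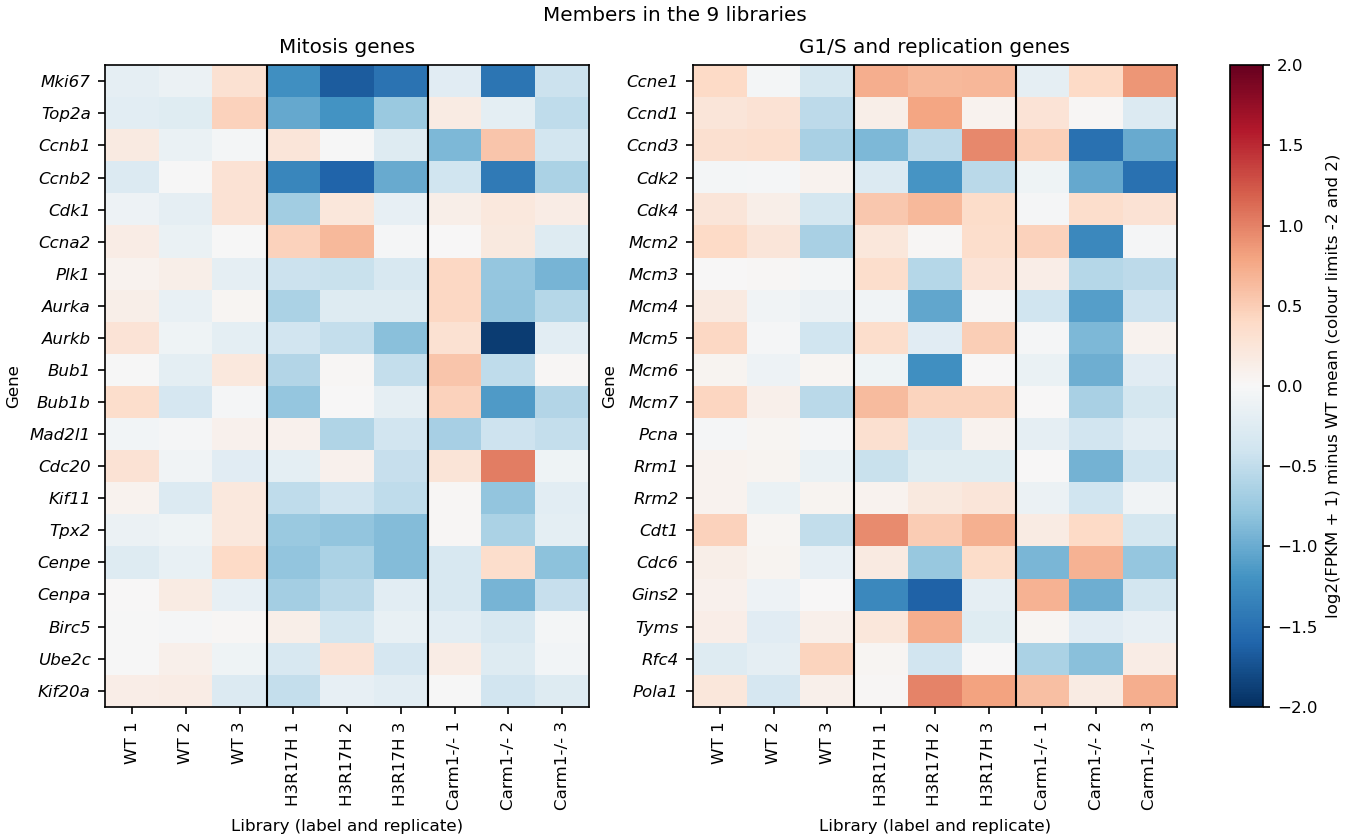
Each cell is log2(FPKM + 1) of a gene in a library minus the mean of that gene in WT, with the 20 mitosis genes on the left and the 20 replication genes on the right, the 9 libraries along the horizontal axis and colours limited at -2 and 2. Mki67, Ccnb2, Top2a and Tpx2 are blue in all 3 libraries labelled H3R17H, and replicate 1 labelled Carm1-/- stays near WT for most mitosis genes.

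The first comparison asks how the libraries labelled H3R17H differ from WT. Mitosis genes had lower values in them, Ccnb2, Mki67, Top2a and Tpx2 most of all, while replication genes lay on both sides of WT. Of the 20 mitosis members, 19 had a lower mean of log2(FPKM + 1) than WT, and in 10 every library labelled H3R17H lay below every WT library, against 15.6% of all genes tested. None lay wholly above WT (13.3% of all genes did). The median difference of the mitosis members was -0.37 on the log2 scale, against -0.032 over all genes. Of the 19 tested replication members, 5 lay wholly above WT and 3 wholly below, and their median was 0.020. No member and none of the 11850 genes (0%) passed in limma at an adjusted p of 0.05 with all 9 libraries in the fit. At an unadjusted p of 0.05, 759 genes were higher and 918 lower, and the smallest adjusted p was 0.0765 over all genes and 0.19 over the members. In such libraries, fewer cells in mitosis and less RNA per cell cannot be told apart.

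The mitosis genes with the lowest differences from WT act at different steps. Ccnb2 encodes cyclin B2, a partner of Cdk1. It stood at 248, 301 and 367 FPKM in WT and, in the libraries labelled H3R17H, at 121, 98.3 and 149, and all 3 of these lay below the lowest WT library. Its difference was -1.31 (SE 0.29, adjusted p = 0.19), and its mean level was 0.402 times that of WT. Mki67, the proliferation antigen that coats mitotic chromosomes, stood at 16.7, 17.5 and 23.8 FPKM in WT and, in the edited libraries, at 7.57, 5.35 and 6.21, at a mean level 0.33 times that of WT. Its groups were far apart relative to their spread (difference -1.45, SE 0.35), but the adjusted p was 0.212. Top2a, the topoisomerase that untangles sister chromatids, stood at 56.3, 55.1 and 89.8 FPKM in WT and, in the edited libraries, at 31.7, 27.8 and 38.6. It differed by -0.99 (SE 0.27, adjusted p = 0.226), without overlap. Tpx2, which activates Aurora A on spindle microtubules, stood at 50.2, 51.3 and 63.7 FPKM in WT and, in the edited libraries, at 32.4, 31.3 and 29.5. It differed by -0.80 (SE 0.23, adjusted p = 0.236), with the 3 edited libraries within a narrow band. On GRCm38, Ccnb2 spans chr9:70407692-70421547 and Mki67 chr7:135689784-135716361 on the minus strand, Top2a chr11:98992943-99024189 on the minus strand and Tpx2 chr2:152847964-152895321 on the plus strand, and the values are of whole genes.

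Ccnb2 and Mki67 were the only members called in any alternative fit of this comparison. With only the WT and H3R17H libraries in the fit, Ccnb2 fell by 1.31 (adjusted p = 0.0359) and Mki67 fell by 1.45 (adjusted p = 0.038), when 1.08% of all genes were called lower. With array quality weights both also passed, at adjusted p of 0.0288 and 0.0335, where 0.878% of genes were called lower. Without replicate 1 labelled Carm1-/-, a library that is in neither group but enters the shared estimate of spread, Ccnb2 passed (adjusted p = 0.0467, 0.481% of genes called lower). Over all alternatives the adjusted p of Ccnb2 ran from 0.0288 to 0.688 and that of Mki67 from 0.0335 to 0.688. Reads of Ccnb2 may be shared with its transcribed pseudogene Ccnb2-ps, so its level is uncertain to that extent.

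The other 6 mitosis genes whose libraries did not overlap were Cenpe, Cenpa, Plk1, Aurka, Aurkb and Kif11. Cenpe, the kinesin that carries chromosomes along spindle fibres from the kinetochore, stood at 22.2, 24.1 and 35.7 FPKM in WT and between 14.2 and 16.8 in the libraries labelled H3R17H. Cenpa, the histone H3 variant that marks centromeres, stood at 253, 281 and 224 in WT and at 156, 173 and 217. Its highest edited library came close to the lowest WT library. The mitotic kinases differed less: Plk1 stood between 83.7 and 103 FPKM in WT and between 69.6 and 75.9 in the edited libraries, Aurka (Aurora A) between 242 and 290 and between 172 and 224, and Aurkb (Aurora B, of the chromosomal passenger complex) between 35.1 and 49.3 and between 22.1 and 30.7. Kif11, the motor that pushes spindle poles apart, stood at 25.2 to 35.8 FPKM in WT and, in the edited libraries, at 21.4 to 23.5. Their differences ran from -0.77 for Cenpe to -0.38 for Aurka, and their adjusted p from 0.336 to 0.604.

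The remaining 10 mitosis members overlapped WT. Ccnb1, cyclin B1, stood at 535, 426 and 454 FPKM in WT and, in the libraries labelled H3R17H, at 556, 465 and 393, a difference of -0.0091 (SE 0.32). Of the B cyclins, Ccnb2 was thus low in these libraries and Ccnb1 was spread around WT. Cdk1, the kinase that both cyclins activate, stood at 88.2, 83.5 and 116 FPKM in WT and, in the edited libraries, at 58.3, 112 and 84.2, with replicate 1 low. Ccna2, cyclin A2, was the single mitosis member with a higher mean than WT, at 67.9 to 83.2 FPKM in WT and 73.7 to 118 in the edited libraries (difference 0.36, SE 0.24). Cdc20 and Ube2c, which start the destruction of cyclin B at anaphase, differed by -0.19 and -0.13, and Birc5 (survivin), partner of Aurora B, by -0.13. The checkpoint genes Bub1, Bub1b and Mad2l1 differed by -0.35, -0.32 and -0.30, and Kif20a, a kinesin of cytokinesis, by -0.29. Ccnb1 has a processed pseudogene, and Ccna2, Cdc20, Ube2c and Kif20a each overlap a gene on the opposite strand, so some of their reads may belong to these.

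**Figure D2:**
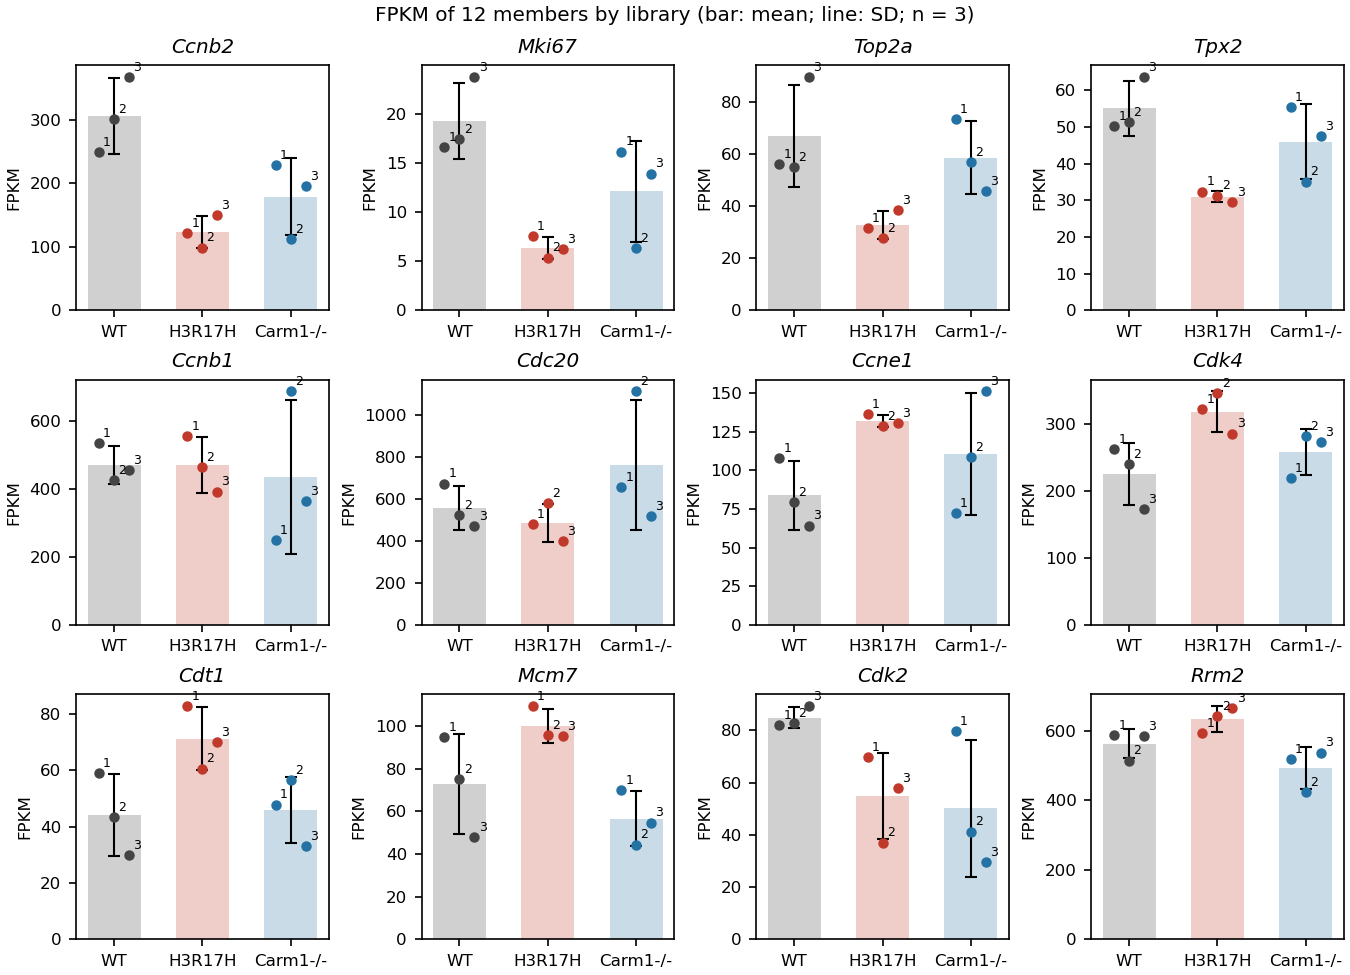
Points are FPKM of each library (numbers give the replicate), bars the group mean and lines the SD (n = 3), with a linear axis from 0 for each of 12 members. The 3 H3R17H points of Ccnb2, Mki67, Top2a and Tpx2 lie below all WT points, those of Ccne1, Cdk4, Cdt1 and Mcm7 above them, and those of Ccnb1 among them.

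Of the replication members, Ccne1, Cdk4, Cdt1, Mcm7 and Rrm2 lay wholly above WT. Ccne1, cyclin E1, stood at 108, 79.3 and 64.2 FPKM in WT and, in the libraries labelled H3R17H, at 137, 129 and 131, all above WT and close together (difference 0.68, SE 0.29, adjusted p = 0.333). Cdk4 stood at 263, 240.1 and 173 FPKM in WT and, in the edited libraries, at 322, 347 and 286, also without overlap. Its difference was 0.51 (SE 0.21, adjusted p = 0.326). Cdt1, which loads the Mcm helicase with Cdc6, stood at 58.9, 43.5 and 29.7 FPKM in WT and, in the edited libraries, at 82.8, 60.6 and 70.1. Its difference was 0.72 (SE 0.30, adjusted p = 0.328), and the lowest edited library lay just above the highest WT library. Mcm7, a helicase subunit, stood at 94.9, 75.2 and 48.1 FPKM in WT and, in the edited libraries, at 109.6, 95.9 and 95.3, a gap smaller than the WT spread. Rrm2 stood at 587, 514 and 585 in WT and at 592, 643 and 666 FPKM, again barely apart. Cdk4 lies at chr10:127063534-127067920 and Cdt1 at chr8:122568015-122573554 on the plus strand, and Ccne1 at chr7:38097984-38107534 and Mcm7 at chr5:138164583-138172422 on the minus strand of GRCm38. At an unadjusted p of 0.05, Cdk4, Cdt1 and Ccne1 were higher (6.41% of all genes were) and Gins2 lower (7.75%).

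The 3 of 19 tested replication members wholly below WT were Gins2, Cdk2 and Rrm1. That count is near the share of 15.6% over all genes. Gins2, a subunit of the GINS complex that joins the active helicase, stood at 59.1, 51.7 and 56.2 FPKM in WT and, in the edited libraries, at 22.1, 17.5 and 49.0, so that replicate 3 came close to WT. Cdk2, the partner of cyclin E, stood at 82.1, 82.9 and 89.4 FPKM in WT and, in the edited libraries, at 69.9, 37.0 and 57.8. Cyclin E1 and its kinase thus lay on opposite sides of WT. Rrm1, the large subunit of ribonucleotide reductase, stood at 107 to 123 FPKM in WT and, in the edited libraries, at 86.1 to 99.0, while Rrm2, its partner, lay above. The other Mcm subunits (Mcm2 to Mcm6) overlapped WT, with differences from -0.44 for Mcm6 to 0.21 for Mcm5, and replicate 2 labelled H3R17H held the lowest value of its group for all 5. Cdc6 (-0.072), the sliding clamp Pcna (0.020), the clamp loader subunit Rfc4 (-0.12), thymidylate synthase Tyms (0.24) and Ccnd3 (-0.16) also overlapped. Pola1, the catalytic subunit of polymerase alpha and the X-linked member, stood at 7.10, 4.47 and 6.38 FPKM in WT and, in the edited libraries, at 6.03, 12.6 and 11.1. Its 2 high values were in the libraries with high Xist and without Y-linked transcripts, while under the label Carm1-/- it stood at 9.47 FPKM in replicate 1, which has those transcripts, and at 6.70 and 10.4 in replicates 2 and 3, which do not. Its difference in H3R17H of 0.61 (SE 0.34) was 0.37 (SE 0.41) with a term for sex, which was read from the Y-linked genes. Pcna, Tyms and Ccnd3 have processed pseudogenes, and Cdk2, Cdk4, Ccnd3, Mcm7, Gins2 and Rfc4 each overlap a gene on the opposite strand, so the reads counted for them are uncertain to that extent.

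Other measured properties of the libraries labelled H3R17H are set here beside the low mitosis values. In the 3 libraries labelled H3R17H the median of the mitosis members, relative to the WT mean, was -0.54, -0.37 and -0.36, against -0.11 to 0.030 in WT. The trophectoderm markers were low in the same libraries, with 7 of 13 wholly below WT and 10 of 13 with lower means (median -0.95). Of 10 tested primitive endoderm markers, 4 lay wholly below WT and 1 above, and 8 had lower means (median -0.82). Of 11 tested epiblast markers, 1 lay wholly below WT and 2 above, and 7 had lower means (median -0.29). Over all genes, 15.6% lay wholly below WT and 13.3% above. The part of these tissues in the mitosis values was not tested. In replicates 1 to 3 the trophectoderm marker sums of 1659, 1706 and 4658 FPKM stood beside mitosis medians of -0.54, -0.37 and -0.36. The 1 library labelled H3R17H with Y-linked transcripts had the lowest median, -0.54, and with a term for sex in the fit the median was -0.24, with differences of -1.10 for both Ccnb2 and Mki67 (adjusted p = 0.688 for each). Cdkn1a, the p21 inhibitor of cyclin-dependent kinases, stood at 113 to 128 FPKM in WT against 259, 360.4 and 175 in these libraries. In the list of CDK inhibitors and pocket proteins from which it comes, 5 of 8 tested genes had lower means than WT (median -0.39), Cdkn1b, Cdkn2c and Cdkn2d lay wholly below WT, and Cdkn1a was the single gene wholly above it.

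The differences from WT also varied with transcript length. Over the 10993 tested genes with a length in GENCODE M21, the median difference of H3R17H from WT ran from 0.21 in the shortest of 10 bins with nearly equal numbers of genes to -0.16 in the longest, with a Spearman rho of -0.14 across genes, which share the same libraries. Mki67, Cenpe, Top2a, Kif11 and Tpx2 are long, with transcripts of 10061, 7910, 5221, 4819 and 4365 bases. Ccnb2, Cenpa, Aurka, Aurkb and Plk1 are of 1466 to 2199 bases. The 10 mitosis members wholly below WT had a median length of 3282 bases and the other 10 of 3193. Across the 20 mitosis members the Spearman rho of difference and length was -0.36, and across the 19 tested replication members -0.18. After each library was centred within the length bins, the median of the mitosis members was -0.28 and 8 of 20 stayed wholly below WT, against 14.2% of all genes. In the fit of only these 2 groups after centring, Ccnb2 fell by 1.28 (adjusted p = 0.0377) and Mki67 fell by 1.29 (adjusted p = 0.0415), when 1.05% of all genes were called lower. The count of replication members wholly below WT went from 3 to 1 with centring.

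**Figure D3:**
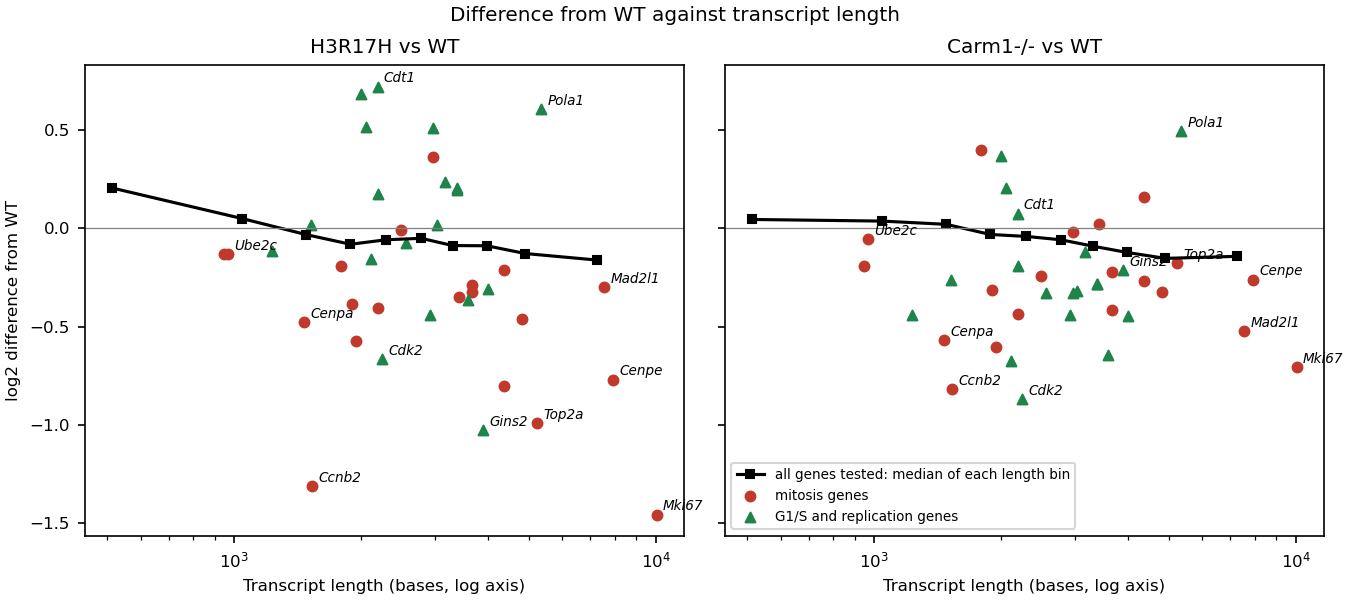
The log2 difference from WT is drawn against transcript length in bases on a log axis, for H3R17H on the left and Carm1-/- on the right, with mitosis genes as circles, replication genes as triangles and the medians of 10 length bins of all genes tested as squares joined by a line. The line falls from 0.21 to -0.16 on the left, and Ccnb2, at 1531 bases, lies far below it.

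The second comparison asks how the libraries labelled Carm1-/- differ from WT, with the same WT libraries as before. Both classes had mostly lower values than WT in replicates 2 and 3 and medians near WT in replicate 1. Of the mitosis members, 17 of 20 had lower means and 5 lay wholly below WT, against 9.71% of all genes. Of the replication members, 15 of 19 had lower means and 4 lay wholly below WT. None of either class lay wholly above WT (6.91% of all genes did). At an unadjusted p of 0.05, Ccnb2, Cenpa and Mad2l1 of the mitosis class and Cdk2 of the replication class were lower (6.19% of all genes were) and no member was higher (5.25%). The medians were -0.26 and -0.28, against -0.042 over all genes. No member and no gene (0% of 11850) passed in limma, and at an unadjusted p of 0.05 there were 622 genes higher and 733 lower. The 3 libraries were unlike each other: the mitosis medians of replicates 1 to 3 were 0.019, -0.47 and -0.31, and the replication medians -0.016, -0.64 and -0.22. By these medians, replicate 1 lay at WT and replicate 2 lowest in both classes. The summed FPKM of the mitosis members was instead highest in replicate 2, at 2941, 3150 and 2457 in replicates 1 to 3, against 2941 to 3185 in WT. Ccnb1 stood at 250, 688 and 364 FPKM in these replicates, against 426 to 535 in WT.

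Ccnb2 had the smallest p of the members here too. It stood at 229, 112 and 195 FPKM against 248 or more in WT, a difference of -0.81 (SE 0.29, adjusted p = 0.354). Mki67 stood at 16.2, 6.30 and 13.9 FPKM, with replicate 1 just below the lowest WT value of 16.7 and replicate 2 near the libraries labelled H3R17H. Its difference was -0.70 (SE 0.35, adjusted p = 0.472). Cenpa stood at 202, 132 and 183 FPKM and Mad2l1, which holds Cdc20 inactive until chromosomes are attached, at 41.2, 49.0 and 46.8 against 63.2 to 69.9 in WT. They differed by -0.57 (SE 0.22, adjusted p = 0.389) and -0.52 (SE 0.23, adjusted p = 0.426), and for Mad2l1 replicate 1 was the lowest of the 3. Birc5 was the fifth mitosis gene wholly below WT, by a small margin, at 102 to 124 FPKM against 126 to 130.2. Top2a and Tpx2, low in the libraries labelled H3R17H, overlapped WT here, at 45.8 to 73.5 and 35.1 to 55.4 FPKM. Cdc20 had the largest higher value of the class, 1115 FPKM in replicate 2 against at most 674 in WT, while its other 2 libraries stood at 656 and 519.

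Among replication genes, Cdk2 stood at 79.8, 41.2 and 29.4 FPKM, a difference of -0.87 (SE 0.35, adjusted p = 0.402), with replicate 1 just under the WT range of 82.1 to 89.4. Mcm4, a helicase subunit, stood between 30.8 and 50.7 FPKM against 62.4 to 76.5 in WT, a difference of -0.64 (SE 0.32, adjusted p = 0.461). Mcm6 (34.7 to 63.0 against 64.2 to 71.6) and Pcna (139 to 159.7 against 178 to 187) were also wholly below WT. All 6 Mcm genes had lower means than WT, with differences from -0.64 to -0.28. Rrm1 and Rrm2 differed by -0.45 and -0.19 and overlapped WT. Pola1, at 9.47, 6.70 and 10.4 FPKM, Ccne1, at 72.4, 109 and 151, Cdk4 and Cdt1 were the 4 members with higher means, all overlapping WT. Ccnd3 was the most variable member, at 162, 40.6 and 57.1 FPKM against 73.5 to 147 in WT.

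This comparison rested on replicate 1 labelled Carm1-/-. Without it, 549 genes were called, with 2.14% of all genes called lower, and 2 members passed. Plk1, at 55.2 and 49.5 FPKM in the 2 libraries left and 127 in replicate 1, fell by 0.85 (SE 0.20, adjusted p = 0.0469), with a range of 0.0469 to 0.998 over the alternatives. Cdk2 fell by 1.26 (SE 0.29, adjusted p = 0.0432), with a range of 0.0432 to 0.993. The counts wholly below WT were then 10 mitosis and 8 replication members, but 22.8% of all genes lay wholly below WT as well with only 2 libraries left. The library whose medians over the members lay at WT is also the one whose trophectoderm markers, Y-linked transcripts and Xist matched WT. Single members in it lay outside the WT range on both sides, such as Aurka at 357 FPKM (242 to 290 in WT) and Mad2l1 at 41.2 (63.2 to 69.9). Of 13 trophectoderm markers, 4 lay wholly below WT over all 3 libraries, and the part of that tissue in these differences was not tested. With a term for sex in the fit, the medians were -0.098 for mitosis and -0.077 for replication members. That term was read from the Y-linked genes, and all WT libraries lie on the same side of it. It therefore rests on replicate 1 against replicates 2 and 3 of the edited labels. With only the libraries that hold Y-linked transcripts, a single library labelled Carm1-/- remains, at a median of 0.019 for mitosis and -0.016 for replication members. Cdkn1a stood at 193, 499 and 287 FPKM, above WT in all 3.

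**Figure D4:**
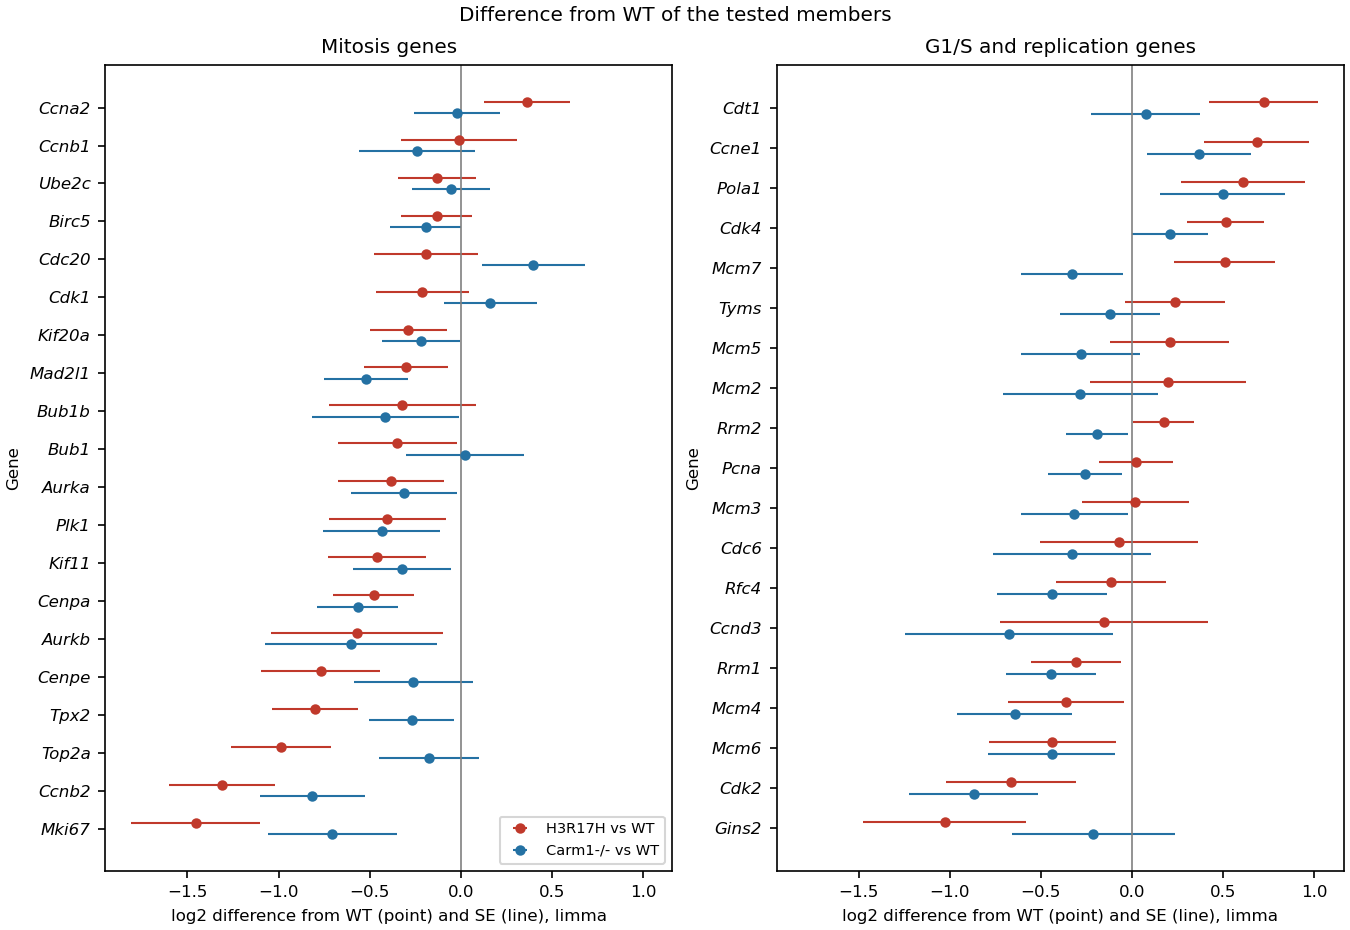
Points are log2 differences from WT in limma and lines 1 SE, for H3R17H and Carm1-/-, with the 20 mitosis genes on the left and the 19 tested replication genes on the right, ordered by the H3R17H difference. Mki67 and Ccnb2 lie lowest for H3R17H at -1.45 and -1.31, and Mcm7 lies at 0.51 for H3R17H and at -0.33 for Carm1-/-.

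The third comparison sets the 2 edited labels against each other. Replication genes had lower values in the libraries labelled Carm1-/-, Mcm7 and Cdt1 among them, and Top2a, Tpx2 and Mki67 had higher ones. No member and no gene (0% of 11850) passed in limma, where 485 genes were higher in Carm1-/- and 488 lower at an unadjusted p of 0.05, and the smallest adjusted p over the members was 0.489. Replication values were lower in the libraries labelled Carm1-/- for 18 of 19 members, with a median difference of -0.31 against -0.011 over all genes, and Gins2 was the exception at 0.81. In 4 of the 19 (Mcm7, Cdt1, Rrm2 and Cdk4) the libraries did not overlap, against 6.07% of all genes. Among mitosis members 12 of 20 were higher, the median was 0.075, and Top2a and Tpx2 lay wholly above, against 5.13% of all genes. At an unadjusted p of 0.05, Mcm7 was lower (4.12% of all genes were) and Top2a and Tpx2 higher (4.09%).

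Mcm7 had the smallest p of the members, at 70.1, 44.5 and 54.8 FPKM in Carm1-/- and 95.3 to 109.6 in H3R17H, a difference of -0.84 (SE 0.28, adjusted p = 0.489). Cdt1 stood at 47.8, 56.4 and 33.2 FPKM and differed by -0.65 (SE 0.30, adjusted p = 0.618), with replicate 2 just below the lowest H3R17H library at 60.6. Rrm2 stood at 519, 424 and 537 FPKM against 592 to 666 and differed by -0.37 (SE 0.17, adjusted p = 0.615). Top2a stood between 45.8 and 73.5 FPKM against 27.8 to 38.6, a difference of 0.81 (SE 0.27, adjusted p = 0.5003). Tpx2 differed by 0.53 (SE 0.23, adjusted p = 0.595) and Mki67 by 0.75 (SE 0.35, adjusted p = 0.629), and Mki67 overlapped because replicate 2 labelled Carm1-/- stood at 6.30. Replicate 2 of each label decided much here: without H3R17H replicate 2, 9 replication members lay wholly below (10.9% of all genes did), and without Carm1-/- replicate 2, 7 mitosis members lay wholly above (13.1%). Without replicate 1 labelled Carm1-/- 10 genes were called, none of them a member.

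Other cell cycle genes, from lists that share no gene with the members, were read beside them. In the libraries labelled H3R17H, 15.6% of all genes lay wholly below WT and 13.3% above, and the counts of the lists stand against these shares. Of 20 spindle and cytokinesis genes 13 lay wholly below WT and none above (median -0.69), of 17 tested kinetochore and spindle checkpoint genes 8 lay below and 1 above (median -0.54), and of 16 condensin and cohesin genes 6 lay below and 1 above (median -0.38). The CDK inhibitors and pocket proteins, at 3 of 8 below and 1 above, had a median of -0.39. Racgap1, a regulator of cytokinesis, stood at 97.7, 94.2 and 102 FPKM in WT and, in the edited libraries, at 50.7, 38.9 and 65.1. Hmmr, a spindle protein, differed by -1.11 (SE 0.32, adjusted p = 0.235). Cenpf, a kinetochore protein, stood at 8.06, 9.72 and 14.9 FPKM in WT and, in the edited libraries, at 3.03, 1.89 and 2.68, and differed by -1.72 (SE 0.37, adjusted p = 0.176). Of 18 genes of the anaphase-promoting complex and mitotic exit 1 lay below and 1 above (median -0.043). Of 18 origin licensing genes 3 lay below and none above (median -0.14), and of 28 genes of the replication fork and nucleotide supply 5 lay below and 2 above (median -0.10), counts near the shares over all genes in the lower direction.

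Regulators upstream of the members were mixed. Cdc25c, the phosphatase that activates Cdk1 at the entry to mitosis, stood between 31.5 and 42.6 FPKM in WT. Its values were 15.4, 12.7 and 19.6 FPKM under the label H3R17H and 28.2, 29.4 and 21.4 under Carm1-/-. Its differences were -1.22 (SE 0.26, adjusted p = 0.175) and -0.52 (SE 0.26, adjusted p = 0.468), with no overlap in either. Of the 14 other cyclins, CDKs and their regulators tested, Cdc25c among them, 2 lay below WT and 1 above in the libraries labelled H3R17H (median 0.011), and 4 below and none above in those labelled Carm1-/- (median -0.22). Of 17 E2F, DREAM and MuvB factors 3 lay above WT and 2 below in the libraries labelled H3R17H, counts near those shares, and none in those labelled Carm1-/-. Foxm1, a transcription factor of mitosis genes, was among the 2, at 6.32, 7.89 and 6.61 FPKM in WT and, in the edited libraries, at 4.75, 2.86 and 3.15, and stood at 7.15, 0.01 and 1.63 in replicates 1 to 3 labelled Carm1-/-. Chek2, a kinase of the DNA damage checkpoint, had higher values in both, with differences of 1.11 (SE 0.29, adjusted p = 0.224) and 0.73 (SE 0.29, adjusted p = 0.392). It was 1 of 3 of the 12 replication checkpoint genes wholly above WT under the label H3R17H, where 1 lay below, and 1 of 2 under Carm1-/-, where 2 lay below. Cdkn1a differed by 1.05 (SE 0.35, adjusted p = 0.257) and 1.30 (SE 0.35, adjusted p = 0.266), and Cdkn2b, another inhibitor, by 0.12 and 1.97. In the libraries labelled Carm1-/-, 4 of 20 spindle genes lay below WT and 2 above, and 5 of 17 kinetochore genes below and 1 above, against 9.71% of all genes below and 6.91% above, so that the counts above were near the share over all genes. Of the 8 CDK inhibitors and pocket proteins none lay below WT there and Cdkn1a and Cdkn2b lay above. Gmnn, which keeps Cdt1 from reloading origins, stood at 52.0 to 97.0 FPKM there, against 110.2 to 170.0 in WT, a difference of -0.90 (SE 0.28, adjusted p = 0.3).

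**Figure D5:**
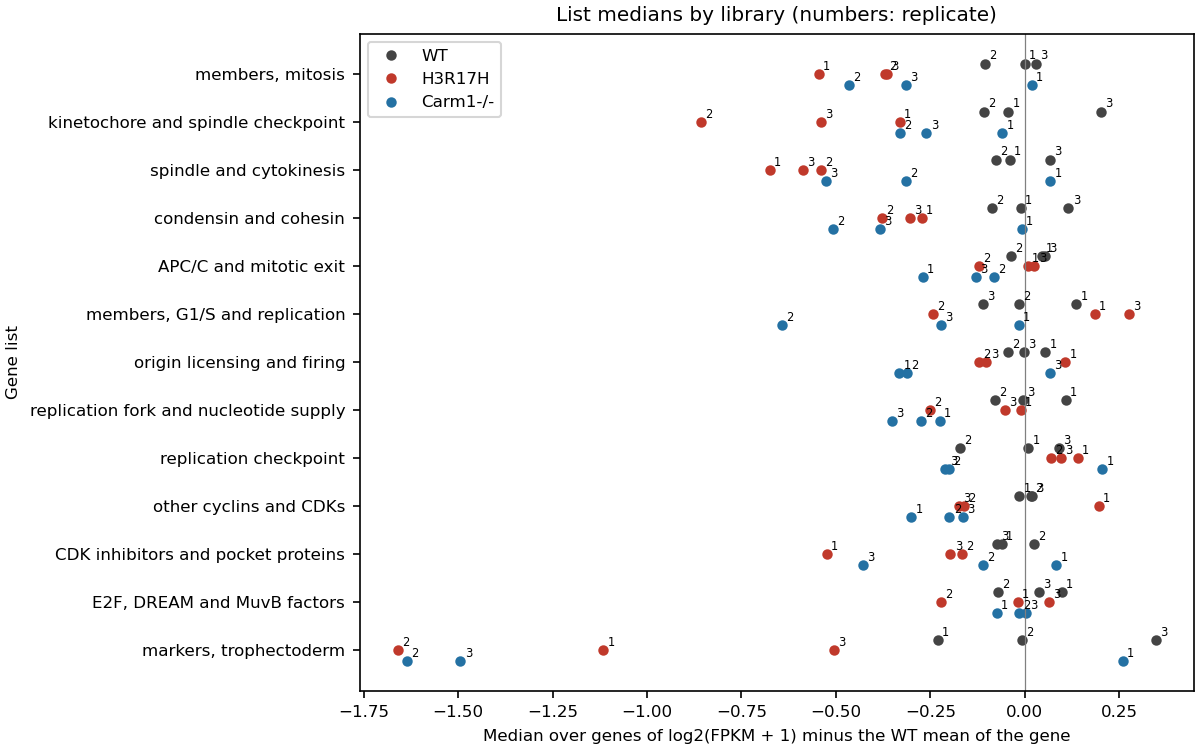
For each list, a point is the median over its tested genes of log2(FPKM + 1) minus the WT mean of the gene in a single library, coloured by label and numbered by replicate. Spindle and cytokinesis genes lie between -0.68 and -0.54 in the libraries labelled H3R17H, the genes of mitotic exit lie near 0, and trophectoderm markers spread furthest, with replicate 1 labelled Carm1-/- beside WT.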

How the data were processed

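RNA of 9 libraries was read from a single table of FPKM values that the authors deposited, 1 column per library. Per the submitters' processing notes, Bowtie 0.12.2 was used, and mm10 and GRCm38 are listed as builds; which quantifier made the FPKM is not given in the sources used here. The values carry no read counts, so the depth is unknown. The 40 members and all gene lists were chosen with earlier results of these data known. Genes that reached 1 FPKM in 3 or more libraries were fitted as log2(FPKM + 1) with limma 3.58.1 in R 4.3.3 (intensity trend, all 9 libraries, no covariates), with Benjamini-Hochberg adjustment over all 11850 genes and a threshold of 0.05. Fold changes are on that scale and understate those of low genes. The fit was also run on simulated data with known log2 differences. The simulated noise was independent between genes, unlike the library differences described above, so that run does not measure power here. With 3 libraries a group, "wholly below" or "above" means that no libraries overlapped. In each comparison, statistics are printed for the 6 members with the smallest p, and for up to 3 such genes of each other list. Differences are also given for further members, with SE or adjusted p for some of them, such as Ccne1, Ccnb1, Ccna2, Pola1 and Plk1. Other values describe levels. Gene positions and transcript lengths come from GENCODE M21 (GRCm38), and promoters from RefSeq (GRCm38.p6). Python 3.11.15, pandas 2.3.3, numpy 2.4.6 and matplotlib 3.10.9 were used. The alternatives were other pseudocounts, filters and scalings, no trend, weights, fewer groups, a block, sex, each library left out and, added after seeing the data, length bins and the counts of non-overlapping members. Sex was set by whether the Y-linked genes summed to at least 1 FPKM in a library. Members with pseudogenes or overlapping genes are uncertain, since strand use in counting is not given in the sources used here.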

Additional observations from a re-analysis of the deposited data

Results flagged for a closer look

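Rrm2, the small subunit of ribonucleotide reductase, was flagged because its libraries lay on opposite sides of the WT mean in the 2 edited labels. The flag and the test below used the same libraries. Under the label Carm1-/- Rrm2 overlapped WT, which stood between 514 and 587 FPKM. All 3 libraries labelled H3R17H (592, 643 and 666 FPKM) lay above the WT mean of 562 FPKM, and all 3 labelled Carm1-/- (519, 424 and 537) below it. The difference between the labels was -0.37 on the log2 scale (SE 0.17); tested in limma, it had an unadjusted p of 0.0525 and an adjusted p of 0.615 and did not pass.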

How the results depend on the processing

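Each of the 6 members with the smallest p in a comparison kept the sign of its difference under every alternative run for it. Of the 8 values of named members that crossed the threshold, 4 were of Ccnb2 and 3 of Mki67 in H3R17H vs WT and 1 of Cdk2 in Carm1-/- vs WT. Genes called in H3R17H vs WT went from 0 to 1 with a pseudocount of 5, 192 under array quality weights, 240 when the fit held only the groups compared, 239 with that and length bins centred, and 5 with only libraries with Y-linked transcripts; the members called were 2 with weights and with only the groups compared, centred or not. The mitosis median was -0.24 with a sex term and -0.54 with only Y-linked libraries, and 1 replication member lay wholly below WT with length bins centred. In Carm1-/- vs WT, 1 gene was called with a pseudocount of 0.1 and 1 with weights; with median-of-ratios scaling 3 mitosis and 2 replication members lay below WT and 1 replication member above, as did 1 with quantile normalization and 1 with length bins (8.14% to 9.49% of all genes lay below and 7.32% to 8.01% above in these 3); with only Y-linked libraries the medians were 0.019 and -0.016. In Carm1-/- vs H3R17H, 1 gene was called with either pseudocount, 2 with median-of-ratios scaling, 2 with quantile normalization, 3 with no trend, 3 with length bins centred and 6 with only Y-linked libraries, where the mitosis median was 0.61. The cause of these shifts was not tested. Samples with the same replicate number did not deviate together (correlations from -0.050 to 0.18), so the numbers share only a number; with the replicate number as a block, 0 genes were called in each comparison.

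With each library left out in turn, H3R17H vs WT gave 0 to 125 genes and 0 to 1 members called (125 and 1 without Carm1-/- replicate 1, 2 genes without WT replicate 1 and 4 without Carm1-/- replicate 2), mitosis medians of -0.45 to -0.32, replication medians of -0.0020 to 0.19, 10 to 12 mitosis members below and 0 to 1 above (1 without H3R17H replicate 3), and 3 to 4 replication members below and 5 to 8 above (8 without H3R17H replicate 2), against 19% to 22.9% of all genes below and 16% to 19.4% above in the same fits. Carm1-/- vs WT gave 0 to 549 genes and 0 to 2 members called, medians of -0.38 to -0.13 and -0.42 to -0.17, 5 to 10 mitosis members below and 0 to 1 above (1 without WT replicate 3), and 4 to 8 replication members below and 0 to 2 above (1 without WT replicate 1 or Carm1-/- replicate 2); each highest count below WT, and the 2 above, came without Carm1-/- replicate 1, and the shares over all genes were 13% to 22.8% below and 9.27% to 19.6% above. Carm1-/- vs H3R17H gave 0 to 10 genes and 0 members called (1 gene without WT replicate 1), medians of -0.030 to 0.27 and -0.46 to -0.18, 0 to 1 mitosis members below and 2 to 7 above, and 5 to 9 replication members below and 0 to 1 above, against 8.96% to 13.6% of all genes below and 8.06% to 13.1% above. FPKM without counts do not show how much of the spread of low members, such as Pola1 and Bub1, is counting error.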
